A study of Mus musculus with 12 samples.

Results

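The gene set described here holds 10 mouse genes used as marks of dedifferentiated and neural crest-like melanoma: Ngfr, Axl, Egfr, Sox9, Sox2, Nes, Aqp1, Gfra2, Wnt5a and Nrg1. They were taken by gene symbol as known marks of these states, with earlier results of these data in view, and all 10 were found once each among the 55416 gene IDs counted. RNA-seq read counts came from 2 cultured melanoma lines of the mouse. B16 and YUMM1.1 cells were left untreated or were exposed to recombinant interferon-gamma (IFNG) at 10 ng/ml, with all 4 groups labelled 48 h and grown in the same serum-supplemented medium. Each group had 3 libraries, 12 in all, and whether those of a group stem from separate cultures is not known. B16 is a pigmented line of spontaneous origin, and YUMM1.1 was derived from a genetically engineered mouse melanoma with mutant Braf and loss of tumour suppressor genes, among them Cdkn2a. Each line stands for 1 tumour, so a difference between them is a difference between these cell lines and not between classes of melanoma.

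Melanocytes arise from the neural crest, and melanoma cells can lose the pigment programme driven by Mitf and take up genes of earlier crest cells or of mesenchymal cells. The neural crest stem cell-like state is usually marked by Ngfr, Aqp1 and Gfra2, the undifferentiated state by Axl, Egfr, Wnt5a and Nrg1, and Nes, Sox2 and Sox9 are genes of stem or progenitor cells that are also found in such tumours. IFNG acts through the JAK kinases and is the T cell cytokine whose exposure is often discussed beside loss of melanoma differentiation antigens.

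The libraries held 2573805 to 7888257 counts in B16 and 19145253 to 24747859 in YUMM1.1, so a gene near 0 in B16 rests on few reads. Levels are given as CPM (counts scaled to the library total) with mean ± SD of 3 libraries, and changes as log2 fold changes with their SE from edgeR. A gene counted as called when its adjusted p (Benjamini-Hochberg, all tested genes) was below 0.05. The 17 melanocyte markers summed to 30640 to 30810 CPM in untreated B16 and to 754 to 834 CPM in untreated YUMM1.1, where Tyrp1, Slc45a2, Kit and Gpr143 had 0 reads and Mitf was at 1.66 CPM. They summed to 38080 to 40040 CPM in treated B16 and to 829 to 858 CPM in treated YUMM1.1. In B16 9 of 16 tested were called higher and 3 lower, among them Pmel higher (log2 1.11) and Tyr lower (log2 -0.50). Of all 11240 genes tested in B16, 22.1% were called higher and 22% lower. With library totals 7 of the markers were higher and 4 lower, and Mitf (adjusted p = 0.0524, edgeR) and Tyrp1 (0.0597) were not called. The part of the marker change in the B16 effects below was not tested. Sox10, a factor of both crest and melanocytes, was at 703 CPM in untreated YUMM1.1 and 959 CPM in untreated B16, which did not pass the test (adjusted p = 0.201) but was called lower in YUMM1.1 with library totals (0.0158) and without B16 IFNG 3 (0.0459). The IFNG target genes Irf1, Socs1, Cd274, B2m and Gbp2 rose in both lines. Leukocyte markers summed to at most 7.35 CPM and keratinocyte and endothelial markers to at most 1.99 CPM in any library. The 9 Schwann and glial markers, genes that crest-like melanoma cells can share, summed to 344 to 357 CPM in untreated B16, 292 to 296 CPM in treated B16, 1837 to 2381 CPM in untreated YUMM1.1 and 1940 to 2717 CPM in treated YUMM1.1. When library totals were used without TMM factors, the median log2 value over all genes shifted by -0.19 (B16) and -0.08 (YUMM1.1). Every direction of an edgeR log2 value below is that under TMM scaling unless another setting is named. CPM values, their ratios and the overlap of libraries use library totals. Shares of genes without overlap are therefore not on the scale of the calls.

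Promoter sequences are shown for the gene that was most abundant in YUMM1.1 (Ngfr) and for the pair that moved in opposite directions in B16 (Axl and Nes). Of the 10 genes 6 had an entry in the RefSeq promoter table of build GRCm38.p6. The stretches run 5′ to 3′ on the gene's strand and end before the annotated transcript starts. They are chr11:95587736-95587948 on the minus strand for Ngfr, chr7:25788734-25788983 on the minus strand for Axl and chr3:87970843-87971077 on the plus strand for Nes. Capitals mark the GC box GGGCGG, a binding motif of SP-family factors, on either strand.
Ngfr: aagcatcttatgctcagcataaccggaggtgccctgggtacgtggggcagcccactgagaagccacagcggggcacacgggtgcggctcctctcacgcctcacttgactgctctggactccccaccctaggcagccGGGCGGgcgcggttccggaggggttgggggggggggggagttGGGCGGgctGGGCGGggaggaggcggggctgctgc
Axl: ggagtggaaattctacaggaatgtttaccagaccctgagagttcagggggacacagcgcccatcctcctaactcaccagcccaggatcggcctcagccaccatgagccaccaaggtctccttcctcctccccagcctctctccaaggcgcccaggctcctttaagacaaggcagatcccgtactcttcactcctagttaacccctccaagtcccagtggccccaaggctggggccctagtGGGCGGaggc
Nes: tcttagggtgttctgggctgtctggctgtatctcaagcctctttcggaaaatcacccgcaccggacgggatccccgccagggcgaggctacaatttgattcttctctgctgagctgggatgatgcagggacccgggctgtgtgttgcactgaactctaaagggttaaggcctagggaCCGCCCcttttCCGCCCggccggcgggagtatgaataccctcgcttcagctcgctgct
The windows of 250 bases before the RefSeq start were searched on both strands for 4 motifs. The GAS element TTCNNNGAA, a motif of IFNG-activated genes, was in 7.02% of 32851 windows, the IRF motif (a pair of GAAA repeats 2 bases apart) in 2.98%, the AP-1 motif TGANTCA in 6.75% and the GC box in 32.7%. GAS and IRF matches can share the letters GAA. None of the first 3 motifs was found in the windows of the 6 genes, which says only that these letters are not in these windows. The GC box was found in all 6: 4 times in Ngfr (3 of them within the stretch shown), 2 times each in Nes and Sox2, and 1 time each in Axl, Egfr and Aqp1. For comparison, a window of the IFNG target Irf1 holds the GAS match TTCCCCGAA 90 bases before its start. Another window of Irf1 holds no GAS match.

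In untreated cells 7 of the 9 tested members were called between the 2 lines, where 68.1% of 13603 tested genes were called. Ngfr, Sox2, Gfra2, Wnt5a and Nrg1 had enough reads to be tested there only through YUMM1.1, so their calls are no test of direction. Untreated YUMM1.1 carried Ngfr, Axl and Nes as abundant transcripts and had clear levels of Gfra2 and Sox2, while untreated B16 had 1 abundant member, Nes. Per exon length, in RPKM (CPM per kilobase of exon), the order in untreated YUMM1.1 was Ngfr at 855 ± 28.4, Axl at 248 ± 12.6, Nes at 162 ± 36.3, Gfra2 at 42.8 ± 4.77 and Sox2 at 21.1 ± 0.447, with no overlap of libraries between neighbours. Below them Nrg1 (2.10 RPKM), Wnt5a (1.87 RPKM), Sox9 (1.15 RPKM) and Aqp1 (1.04 RPKM) overlapped with their neighbours in that order, and Egfr was last at 0.00439 RPKM. In untreated B16 the order was Nes at 49.4 ± 2.54 RPKM, Axl at 2.28 ± 0.519, Sox9 at 1.28 ± 0.568 and Aqp1 at 0.436 ± 0.136, where Axl and Sox9 overlapped, and then Ngfr at 0.137 RPKM. The other 5 genes had 0 or 1 read over the 3 untreated B16 libraries. After IFNG the first 2 places of the B16 order were exchanged, with Axl at 17.96 ± 2.62 RPKM above Nes at 6.76 ± 0.597 RPKM and no overlap. In treated YUMM1.1 Axl and Nes overlapped and Nrg1 went from the sixth to the ninth place.

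**Figure D1:**
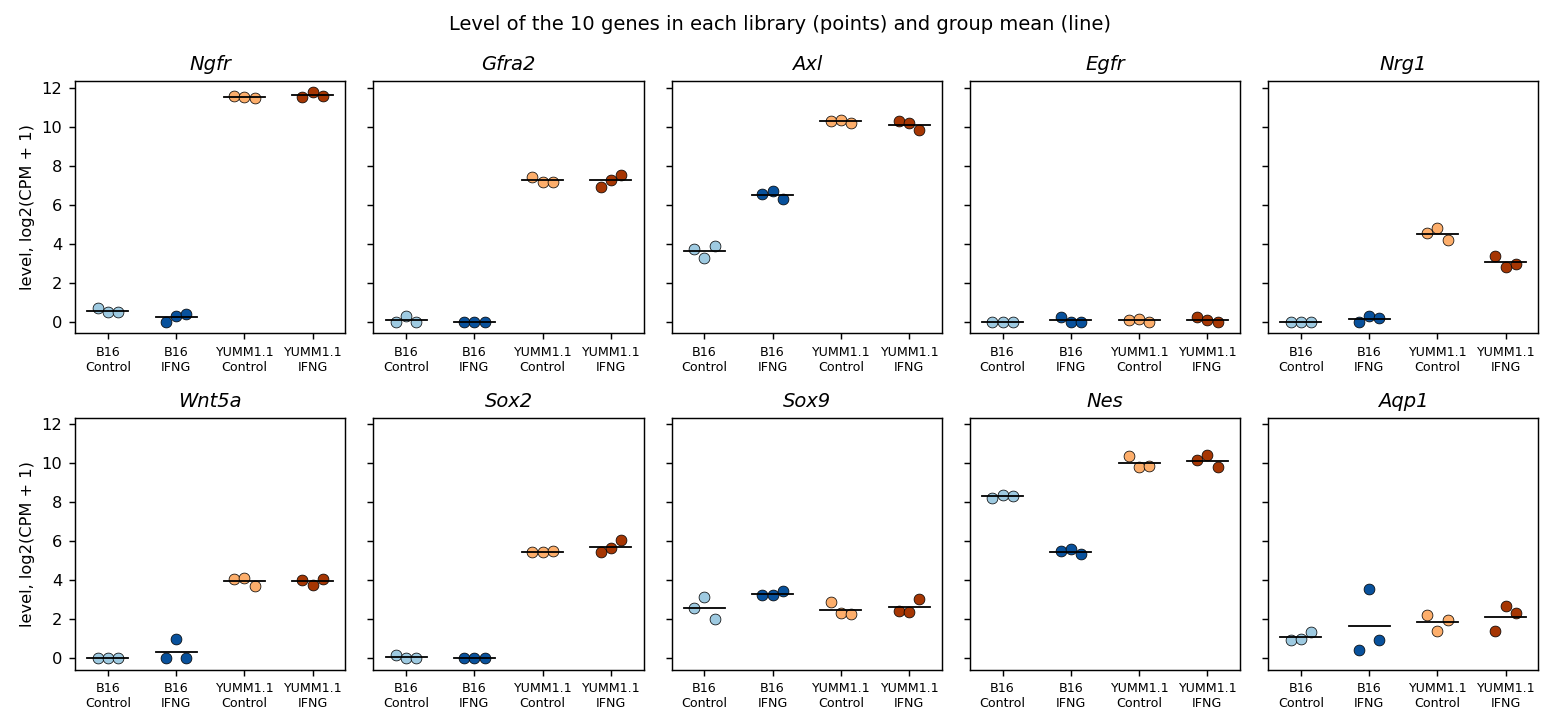
Level of each of the 10 genes in the 12 libraries as log2(CPM + 1), on 1 shared axis; points are libraries and lines are group means. In B16 (blue) Axl is higher and Nes lower after IFNG with no overlap, and in YUMM1.1 (orange) Nrg1 is the gene whose treated libraries all lie below the untreated ones.

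For the effect of IFNG 3 members were called in B16 and 1 in YUMM1.1. In B16 only Axl, Sox9 and Nes had enough reads to be tested, and all 3 were called, 2 higher and 1 lower, in a comparison where 44.1% of 11240 tested genes were called (22.1% higher and 22% lower). With library totals 30.6% in place of 50.1% of the B16 calls were higher. In YUMM1.1 9 members were tested and 1 was called, lower, where 4.56% of 12970 tested genes were called (3.73% higher and 0.825% lower), and 70.5% in place of 81.9% of the calls were higher with library totals. The median log2 value of the tested members was 0.89 in B16, which is only the Sox9 value, with Axl above and Nes below it. In YUMM1.1 the median of the tested members was 0.17. Over all tested genes it was -0.01 in each line. The effects differed between the lines for Axl and Nes, 2 of 9 tested members, where 18.5% of 13603 tested genes were called. Counts in the lists below are to be read against these shares. Of those calls 53.9% were higher in YUMM1.1, and 66.1% with library totals.

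**Figure D2:**
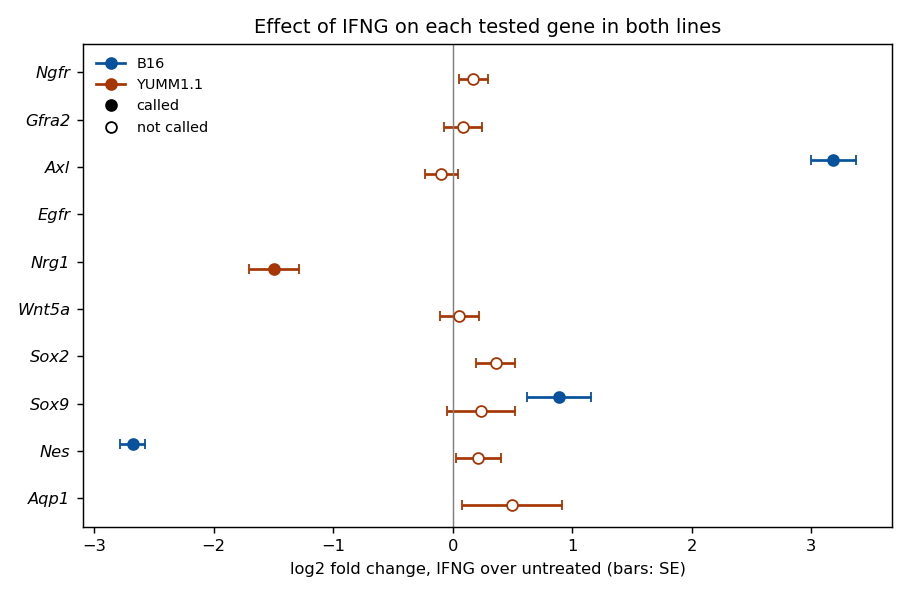
Log2 fold change of IFNG over untreated cells for each member tested in a line, with SE as bars; filled points were called and open points were not, and a missing point had too few reads to be tested. Axl (3.19) and Nes (-2.68) in B16 lie farthest from 0, and the YUMM1.1 values other than Nrg1 (-1.49) lie between -0.10 and 0.50.

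Axl encodes a receptor tyrosine kinase of the TAM family (Tyro3, Axl, Mertk), bound by the vitamin K-dependent ligand Gas6. The gene lies at chr7:25757273-25788705 on the minus strand (GENCODE M21 on GRCm38, as for all coordinates below). In B16 it stood at 12.3, 8.57 and 13.6 CPM in the untreated libraries and at 91.9, 103 and 76.5 CPM after IFNG. Every treated library was above every untreated one, as for 18.2% of tested genes in this direction. Axl rose by a log2 fold change of 3.19 (SE 0.186, adjusted p = 1.14e-06, edgeR). By library totals Axl was at 7.87 times its untreated mean CPM. In YUMM1.1 it stood at 1265, 1300 and 1177 CPM untreated and 1258, 1161 and 905 CPM treated, with overlapping groups and no call (log2 -0.10, SE 0.139, adjusted p = 0.832). The effect differed between the lines by -3.26 on the log2 scale (SE 0.233, adjusted p = 1.12e-07, edgeR). Treated B16 was still 12.3-fold below treated YUMM1.1 in mean CPM, against 109-fold before treatment.

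Of 7 other listed genes of the TAM family 4 were tested in each line, and in B16 2 were called higher and 2 lower. Pros1, which encodes protein S and binds Tyro3 and Mertk, rose from 28.0 ± 1.75 to 86.3 ± 8.45 CPM in B16 (log2 1.82, adjusted p = 2.05e-06, edgeR). Lgals3, which encodes galectin-3, a lectin also described as a ligand of Mertk, rose from 83.6 ± 10.8 to 180 ± 21.7 CPM (log2 1.29). Of the sister receptors Tyro3 fell from 35.9 ± 3.23 to 11.02 ± 3.19 CPM (log2 -1.54) and Mertk fell from 5.62 ± 0.199 to 1.19 ± 0.141 CPM (log2 -2.04). In YUMM1.1 Pros1 rose from 62.3 ± 14.7 to 102 ± 13.2 CPM (log2 0.79, adjusted p = 0.0236, edgeR), a call lost on leaving out Control 2, Control 3, IFNG 2 or IFNG 3 (adjusted p 0.0638 to 0.108). Tyro3 (log2 0.23), Mertk (0.03) and Lgals3 (0.05) were not called there. The effects on Tyro3, Mertk and Pros1 differed between the lines (difference 1.79, 2.11 and -1.02). Gas6 itself had 0 and 3 reads in the B16 groups and 17 in each YUMM1.1 group, and Tulp1, a further ligand of the family, had 14 reads in untreated and 1 in treated B16 and 0 in YUMM1.1.

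Ngfr encodes the low-affinity neurotrophin receptor p75 and lies at chr11:95568818-95587735 on the minus strand. In YUMM1.1 it was the most abundant member, with 3034, 2961 and 2840 CPM in untreated and 2968, 3434 and 3026 CPM in treated libraries. The groups overlapped and the gene was not called (log2 0.17, SE 0.122, adjusted p = 0.588, edgeR). In B16 the untreated libraries held 8 reads in all (0.634, 0.398 and 0.389 CPM) and the treated ones 3 (0, 0.199 and 0.301 CPM), too few for the test. Its pooled B16 level in treated over untreated cells had a ratio of 0.329 with an exact binomial 95% interval of 0.0562 to 1.37, which covers counting error only. The difference of effects between the lines was 1.56 (SE 0.713, adjusted p = 0.219) and rests on those few B16 reads.

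Among 13 other neurotrophin genes 5 were tested in B16 and 8 in YUMM1.1. In B16 Ntrk3, the receptor of neurotrophin-3, fell from 2.96 ± 0.226 to 0.100 ± 0.174 CPM, 47 reads against 2 (log2 -4.31, adjusted p = 4.49e-04, edgeR). Traf6, an adaptor used by p75, rose from 59.8 to 71.0 CPM (log2 0.44, adjusted p = 0.00803), and it was not called without Control 2 (0.0556) or with library totals (0.0800), with which the list's median went from 0.10 to -0.09. Maged1, a p75-binding protein and the most abundant gene of the list per length, was at 525 ± 30.4 and 540 ± 66.5 CPM and was not called. It was called higher without IFNG 3 (log2 0.33). In YUMM1.1 edgeR and DESeq2 each called 0 of the 8, and 1 had an unadjusted p below 0.05. The receptor gene Ntrk2 had 0 reads in B16 and 3 and 4 in the YUMM1.1 groups.

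Gfra2 encodes the neurturin-binding co-receptor that signals through Ret and lies at chr14:70890120-70979838 on the plus strand. In YUMM1.1 it was at 171, 140 and 143 CPM untreated and at 119, 154 and 183 CPM treated. The treated libraries spread to both sides of the untreated ones, and the gene was not called (log2 0.09, SE 0.159, adjusted p = 0.873). In B16 it had 1 read in the untreated and 0 in the treated group. Ret had 0 reads in B16 and 6 reads in each YUMM1.1 group. Of 10 listed genes of the GDNF family 3 were tested in B16 and 8 in YUMM1.1. In B16 Gfra4, the persephin co-receptor, fell from 5.38 ± 0.327 to 1.84 ± 0.302 CPM (log2 -1.38, adjusted p = 0.00157), a call lost when all 12 libraries shared 1 fit (adjusted p = 0.114). Ncam1, a neural adhesion molecule and alternative GDNF receptor, fell from 20.8 ± 4.40 to 10.7 ± 1.74 CPM (log2 -0.73, adjusted p = 0.0148). In YUMM1.1 the ligand gene Gdnf rose from 46.0 ± 4.96 to 70.9 ± 7.23 CPM (log2 0.70 with SE 0.123, adjusted p = 0.00750, edgeR). Ncam1 was at 226 ± 62.4 and 203 ± 33.9 CPM there and was not called.

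Egfr, the epidermal growth factor receptor at chr11:16752203-16918158 on the plus strand, was not expressed at a level that these libraries could resolve. It had 0, 1, 3 and 5 reads in untreated B16, treated B16, untreated YUMM1.1 and treated YUMM1.1. It was tested in no comparison. The floor of 3 reads over a group stands at 0.194 CPM in untreated B16 and at 0.0492 CPM in untreated YUMM1.1. The antisense gene Egfros overlaps it on the other strand, and since the strand of the libraries is not given, reads in the overlap cannot be told apart.

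Nrg1 encodes neuregulin-1, the ligand of Erbb3 and Erbb4, and lies at chr8:31814551-32884029 on the minus strand. It was the one member called for the effect of IFNG in YUMM1.1. The untreated libraries stood at 22.0, 26.3 and 16.9 CPM and the treated ones at 9.22, 6.02 and 6.77 CPM. All treated libraries were below all untreated ones, as for 16.3% of tested genes in this direction. Nrg1 fell by 1.49 on the log2 scale (SE 0.207, adjusted p = 0.00152, edgeR). By library totals Nrg1 was at 0.337 of its untreated mean CPM. In B16 it had 0 reads untreated and 2 treated, so its difference of effects between the lines (adjusted p = 0.141) had little to rest on. A small RNA gene and a long non-coding RNA gene overlap Nrg1 on the other strand, and no strand is known for the reads.

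Among 18 listed ErbB genes around Nrg1 and Egfr, 10 were tested in B16 and 7 were called, all lower, with a median log2 of -0.60 (4 to 7 lower over the alternatives, 4 by DESeq2). Erbb3, the neuregulin receptor of melanocytes and Schwann cells, fell from 225 ± 9.70 to 57.3 ± 1.77 CPM (log2 -1.78 with SE 0.0925, adjusted p = 4.19e-07, edgeR). The ligand Tgfa fell from 16.9 ± 2.84 to 2.42 ± 0.846 CPM (log2 -2.62) and the adaptor Shc1 from 195 ± 6.47 to 63.8 ± 6.68 CPM (log2 -1.42). In YUMM1.1 15 were tested and 3 were called, all lower (Tgfa, Areg and Errfi1), with a median of -0.21. Over the alternatives 0 to 4 were lower and 0 to 2 higher, and without IFNG 2 none of the 3 was called. Errfi1 (log2 -0.69, adjusted p = 0.0475) also lost its call without Control 1, Control 3 or IFNG 3 (adjusted p up to 0.152 for these). The ligand Areg fell there from 3.25 ± 0.660 to 1.07 ± 0.298 CPM (log2 -1.53, adjusted p = 0.0172), a call lost without Control 1 (adjusted p = 0.0678) or without IFNG 2 (0.0772). Tgfa was at 11.5 ± 2.72 and 6.27 ± 0.634 CPM in YUMM1.1 (log2 -0.80, adjusted p = 0.0483), and its call was lost on leaving out any library but Control 3. Erbb3 stood at 550 ± 126 and 700 ± 95.6 CPM in YUMM1.1 without a call, and its effect differed between the lines by 2.23 (SE 0.212). Erbb4 had 1 read in all 12 libraries.

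Wnt5a encodes a ligand of β-catenin-independent Wnt signalling and lies at chr14:28504750-28527448 on the plus strand. In YUMM1.1 it was at 15.8, 16.2 and 11.9 CPM untreated and 14.9, 12.7 and 15.8 CPM treated. The groups overlapped and the gene was not called (log2 0.06, SE 0.161, adjusted p = 0.925). In B16 it had 0 reads untreated and 5 treated, and all 5 were in the library IFNG 2, so the other 2 treated libraries also had 0. The predicted gene Gm2670 overlaps Wnt5a on the other strand.

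Of 20 listed genes of the Wnt5a pathway 14 were tested in B16, where 1 was called higher and 5 lower, with a median log2 of -0.35. This is close to the share of 44.1% over all tested genes. With library totals 7 were lower. The receptor Ryk, the most abundant of them per length, fell from 140 ± 3.54 to 74.2 ± 6.46 CPM (log2 -0.72, adjusted p = 3.12e-04, edgeR). The planar polarity gene Prickle1 fell from 248 ± 9.83 to 60.5 ± 7.79 CPM (log2 -1.84), and the receptors Fzd4 from 13.8 ± 0.919 to 2.09 ± 0.226 CPM (log2 -2.50) and Fzd2 from 19.9 ± 0.644 to 8.22 ± 3.15 CPM (log2 -1.11). Camk2d, a calcium-dependent kinase and the called gene that rose, went from 66.4 to 89.1 CPM (log2 0.63). In YUMM1.1 edgeR and DESeq2 each called 0 of 15 tested genes, 3 had an unadjusted p below 0.05, and Ryk was at 119 ± 10.6 and 96.5 ± 3.27 CPM. The Wnt5a co-receptors Ror1 and Ror2 had 0 reads in YUMM1.1, and in B16 Ror2 had 2 reads.

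**Figure D3:**
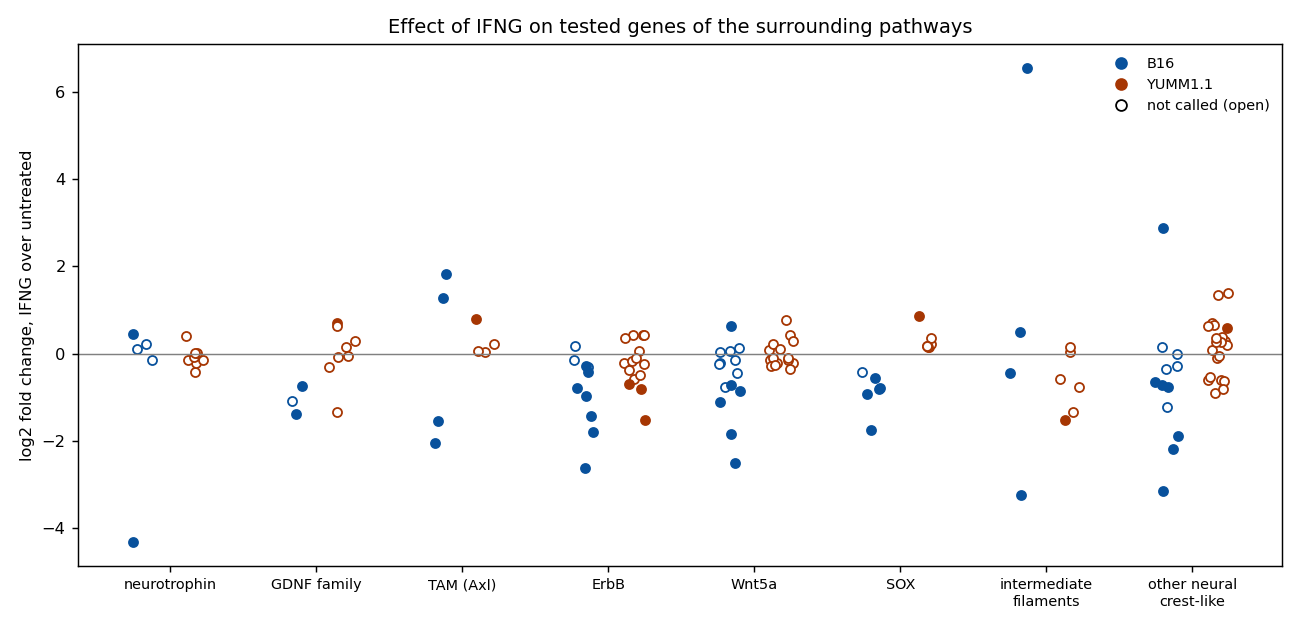
Log2 fold change of IFNG over untreated cells for each tested gene of the lists around the members, in B16 (blue) and YUMM1.1 (orange); filled points were called and open points were not, and horizontal spread within a list has no meaning. In B16 the called ErbB and SOX genes lie below 0, and the highest point is Prph (6.55) among the intermediate filaments.

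Sox2, a factor of stem and early glial cells, lies at chr3:34650405-34652461 on the plus strand within the longer gene Sox2ot on the same strand. In YUMM1.1 it stood at 42.8, 42.8 and 44.4 CPM untreated and 42.0, 49.3 and 66.3 CPM treated. A treated library lay below the untreated range and the other 2 above it, and the gene was not called (log2 0.36, SE 0.161, adjusted p = 0.331). Its unadjusted p was 0.0493 (edgeR). Sox2ot had 29 and 39 reads in the 2 YUMM1.1 groups against 2639 and 3686 reads for Sox2. In B16 Sox2 had 1 read untreated and 0 treated.

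Sox9, a crest factor also used by glia and cartilage, lies at chr11:112782224-112787760 on the plus strand and was low in both lines. In B16 it was at 4.94, 7.77 and 3.11 CPM untreated and at 8.35, 8.35 and 10.1 CPM treated, 86 reads against 159. The groups did not overlap, but the highest untreated library was close to the lowest treated one. Sox9 rose by a log2 fold change of 0.89 (SE 0.268, adjusted p = 0.0236, edgeR), and the call was lost with library totals (0.0567), without Control 1 (0.120) and without Control 3 (0.0639), within a range of 0.00239 to 0.120 over the alternatives. In YUMM1.1 it was at 6.39, 4.02 and 3.81 CPM untreated and 4.36, 4.20 and 7.32 CPM treated and was not called (log2 0.24, SE 0.287, adjusted p = 0.788). The effects were not shown to differ between the lines (-0.64, SE 0.431, adjusted p = 0.343).

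Among 10 other SOX genes 6 were tested in B16 and 5 were called, all lower (Sox4, Sox5, Sox6, Sox11 and Sox21), with a median log2 of -0.80 (4 to 6 lower over the alternatives). Sox6 fell from 158 ± 8.63 to 80.2 ± 6.95 CPM (log2 -0.78 with SE 0.101, adjusted p = 2.14e-04, edgeR). Sox10 stood at 959 ± 65.8 and 631 ± 173 CPM (log2 -0.41, adjusted p = 0.0975) and was called lower with library totals (adjusted p = 0.0199), with no filter, when all 12 libraries shared 1 fit, and without IFNG 3 (log2 -0.20, adjusted p = 0.00905). In YUMM1.1 Sox13 rose from 10.3 ± 0.601 to 17.8 ± 2.11 CPM (log2 0.86, adjusted p = 0.00463) and was the only one of 7 tested to be called. The effects on Sox4 and Sox6 differed between the lines, both higher in YUMM1.1 relative to B16. Those on Sox5 (adjusted p = 0.0214) and Sox21 (0.0411) were called as well but not without several libraries, with adjusted p up to 0.0828 for Sox5 (without B16 Control 2) and 0.144 for Sox21 (without YUMM1.1 IFNG 1).

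Nes encodes nestin, an intermediate filament protein of neural stem cells and of many melanomas, and lies at chr3:87971078-87980451 on the plus strand. In B16 it stood at 298, 330 and 322 CPM untreated and at 43.6, 47.1 and 39.5 CPM after IFNG. All treated libraries lay below all untreated ones, as for 41.3% of tested genes in this direction. Nes fell by 2.68 on the log2 scale (SE 0.107, adjusted p = 6.63e-08, edgeR). By library totals Nes was at 0.137 of its untreated mean CPM. In YUMM1.1 it stood at 1304, 880 and 924 CPM untreated and 1138, 1375 and 906 CPM treated, with overlap and no call (log2 0.21, SE 0.187, adjusted p = 0.679). The effect differed between the lines by 2.91 (SE 0.233, adjusted p = 3.41e-07, edgeR).

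Nestin assembles with other filament proteins, and those moved in both directions in B16. Of 9 listed genes 4 were tested, and 2 were called higher and 2 lower, with a median log2 of 0.03 that turned to -0.16 with library totals. Prph, which encodes peripherin of peripheral neurons, rose from 3.37 ± 0.243 to 282 ± 69.0 CPM (log2 6.55 with SE 0.254, adjusted p = 6.63e-08, edgeR). Vim, the usual partner of nestin, fell from 2025 ± 48.6 to 1310 ± 91.3 CPM (log2 -0.44, adjusted p = 0.00224), and Des fell from 10.5 to 0.977 CPM (log2 -3.23). Gfap was at 15.8 and 20.1 CPM (log2 0.50, adjusted p = 0.0321), a call lost with library totals and without 4 of the 6 libraries in turn (Control 2, Control 3, IFNG 1 or IFNG 2). In YUMM1.1 Prph had 1 read in each group, Vim was at 10620 ± 1712 and 10340 ± 932 CPM without a call, and the neurofilament gene Nefl fell from 5.56 ± 0.913 to 1.83 ± 0.388 CPM (log2 -1.53, adjusted p = 0.00355).

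Aqp1 encodes a water channel that marks crest cells and lies at chr6:55336432-55348555 on the plus strand. In B16 it was at 0.887, 0.996 and 1.55 CPM untreated and at 0.334, 10.7 and 0.904 CPM treated, that is 7, 5 and 4 reads against 2, 54 and 6. The rise of the treated mean came from the library IFNG 2 alone, and without it the treated mean was 0.619 CPM, below the untreated 1.15 CPM. Aqp1 was not tested in B16. The authors' deposited table gives it a log2 fold change of 2.05 with an unadjusted p of 0.0274. Some fibroblast markers were high in the same library. All 9 summed to 76.5 CPM in IFNG 2, to 7.18 and 11.2 CPM in IFNG 1 and IFNG 3, and to 10.9 to 17.5 CPM in the untreated B16 libraries. Col1a1 had 123 reads and Acta2 had 80 reads in IFNG 2, against 11 and 22 reads of Col1a1 and 3 and 11 reads of Acta2 in the other treated libraries, and Col1a2 (25.8 CPM) and Pdgfrb (5.17 CPM) were also highest there. Others were not: Pdgfra was at 2.78 CPM, below the untreated 3.78 to 6.61 CPM. Fap and Lum (0.596 and 0.795 CPM) were no higher than in IFNG 3. Dcn had 4 reads in IFNG 2 (0.795 CPM), hardly above Control 3 (0.777 CPM). The 1 B16 read of Thy1 was in IFNG 2. The 5 B16 reads of Wnt5a were in the same library. The part of fibroblast transcripts in these values was not tested. In bulk samples, fewer cells of a type and less RNA per cell cannot be told apart.

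**Figure D4:**
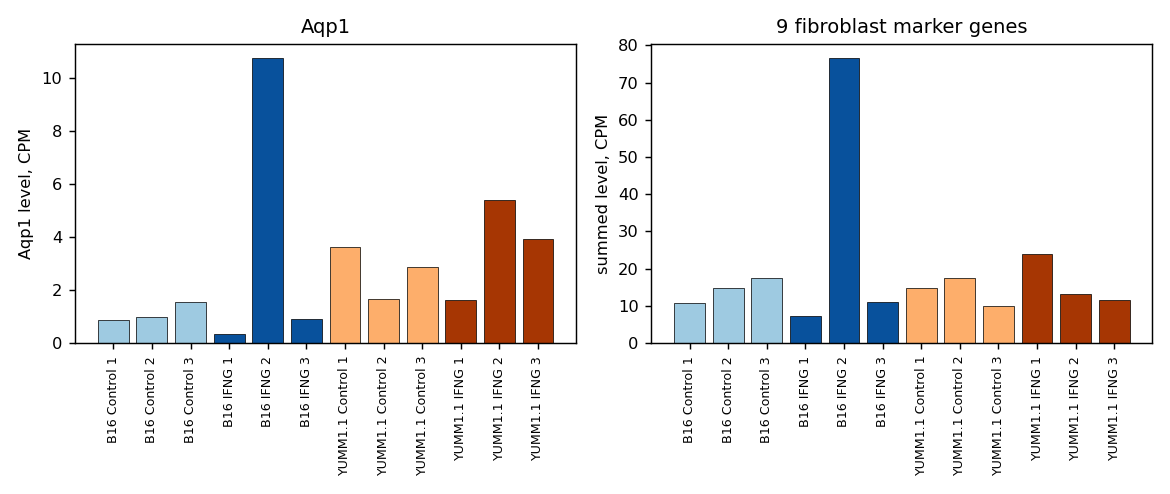
Aqp1 level (left) and the summed level of 9 fibroblast marker genes (right) in CPM, 1 bar for each of the 12 libraries, colours by group. The library B16 IFNG 2 is the highest in both panels, at 10.7 and 76.5 CPM.

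In YUMM1.1 Aqp1 was at 3.62, 1.67 and 2.88 CPM untreated and 1.62, 5.37 and 3.92 CPM treated. The groups overlapped and the gene was not called (log2 0.50, SE 0.420, adjusted p = 0.670). The effect of IFNG on Aqp1 in YUMM1.1 minus that in B16 was -1.50 (SE 1.26, adjusted p = 0.465) and turned to 1.06 without B16 IFNG 2. Among 8 other aquaporins Aqp11, a channel of internal membranes, was the only one tested in B16 and rose from 2.59 ± 0.798 to 8.39 ± 0.753 CPM (log2 1.98, adjusted p = 1.58e-04, edgeR). In YUMM1.1 edgeR and DESeq2 each called 0 of 2 tested aquaporins and 0 had an unadjusted p below 0.05, among them Aqp5 at 2.35 ± 1.38 and 2.53 ± 2.43 CPM.

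A further list of 28 genes of dedifferentiated or crest-like melanoma, none of them a member, gave 1 higher and 6 lower among 12 tested in B16, with a median log2 of -0.68. L1cam, a neural adhesion molecule, fell from 79.2 ± 1.62 to 7.94 ± 2.12 CPM (log2 -3.14 with SE 0.181, adjusted p = 1.05e-06, edgeR). Thbs1, which encodes a matrix glycoprotein, was the gene that rose, from 7.07 to 43.1 CPM (log2 2.87). In YUMM1.1 edgeR called 1 of 21, higher, with a median of 0.26, while 11 had an unadjusted p below 0.05, DESeq2 called 4, and 0 to 4 were higher and 0 to 3 lower over the alternatives. The crest factor gene Tfap2b rose from 86.3 ± 0.699 to 123 ± 14.3 CPM (log2 0.59, adjusted p = 0.0129). That call was lost without Control 3 (0.0636) or without IFNG 2 (0.0562). The receptor gene Fgfr1 was not called by edgeR (adjusted p = 0.0553) and was called lower by DESeq2 (log2 -0.63, adjusted p = 0.00781) and with library totals (log2 -0.70). L1cam, at 501 ± 169 and 545 ± 157 CPM, was not called in YUMM1.1, and its effect differed between the lines (3.36, SE 0.365). The crest factor gene Foxd3 had 0 reads in B16 and 99.4 ± 8.20 CPM in untreated YUMM1.1.

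Between the untreated lines 7 of 9 tested members were called, all higher in YUMM1.1, in a comparison that called 68.1% of 13603 genes (34.7% higher in YUMM1.1). Ngfr, Sox2, Gfra2, Wnt5a and Nrg1 had 0 to 8 reads in a B16 group and passed the filter only through YUMM1.1. The direction of their calls was thus nearly fixed in advance, and the count of members is a description. Line, depth and origin of the libraries go together here and cannot be told apart. Of all genes called in this comparison 40.5% in place of 50.9% were higher in YUMM1.1 with library totals. Ngfr was higher by 12.66 on the log2 scale (SE 0.223, adjusted p = 1.30e-16, edgeR), with a pooled ratio of 5708 and an exact binomial 95% interval of 2897 to 13220. Axl was higher by 6.996 (SE 0.199, adjusted p = 2.42e-14) and Nes by 1.93 (SE 0.163, adjusted p = 1.92e-08). In mean CPM by library totals Nes was 3.27-fold higher. Against 1 read in untreated B16, the pooled ratio was 2358 (423 to 93150) for Gfra2 and 670 (120 to 26490) for Sox2. Against 0 reads and a floor of 3 reads over the group, Nrg1 was at least 112-fold and Wnt5a at least 75.9-fold higher in YUMM1.1. Sox9 was close in both lines (log2 0.01, SE 0.321, adjusted p = 0.991), and its sign turned with library totals (-0.21). Aqp1 was at 2.72 ± 0.985 CPM in YUMM1.1 and 1.15 ± 0.358 CPM in B16 (log2 1.58, SE 0.992, adjusted p = 0.173), and it was called higher without B16 IFNG 2, which shares the spread estimate of the fit (adjusted p = 0.0161).

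Of the wider list of 28 crest-like genes 19 of 21 tested were called higher in untreated YUMM1.1, against 34.7% of all tested genes. The other 2, Loxl2 and Mbp, were called lower. Genes such as Tfap2b and Foxd3, with 0 reads in B16, passed the filter only through YUMM1.1. The median log2 of the list was 3.39, against 9.38 for the 9 tested members and 0.02 for all tested genes. Melanocyte markers went the opposite way, with 15 of 16 tested lower in YUMM1.1. Of all tested genes 68.1% were called in either direction, and the 34.7% higher in YUMM1.1 are part of these. Markers such as Tyrp1 and Kit, with 0 reads in YUMM1.1, passed the filter only through B16. Members and lists were chosen with earlier results of these data known, so these counts are a description and not independent of each other.

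After IFNG the same 7 members were higher in YUMM1.1 than in B16, where 69.8% of 13603 genes were called (36.6% higher). For Ngfr, Sox2, Gfra2, Wnt5a and Nrg1 the direction was again nearly fixed by the filter, which they passed only through YUMM1.1. This comparison shares no library with the untreated one but uses the same fit. The Axl difference was 3.74 (SE 0.162, adjusted p = 2.70e-12, edgeR) and the Nes difference 4.84 (SE 0.188, adjusted p = 7.03e-13). In mean CPM by library totals Nes was 26.3-fold higher in YUMM1.1. Ngfr had a pooled ratio of 18560 against 3 B16 reads (6350 to 89990), Nrg1 of 64.1 against 2 reads (17.7 to 531) and Wnt5a of 50.8 (21.7 to 157) against the 5 reads of IFNG 2. Gfra2 was at least 900.5-fold and Sox2 at least 311-fold higher than the floor of B16. Sox9 was lower in treated YUMM1.1 in every library, at 0.593 of the B16 mean CPM, where 38.3% of tested genes had no overlap in this direction. The edgeR log2 of Sox9 was -0.63 (SE 0.291, adjusted p = 0.0621). It was called with library totals (0.0288), DESeq2 (0.0495), without YUMM1.1 Control 1 (0.0479) and without YUMM1.1 IFNG 3 (0.00890), in a range of 0.00890 to 0.422. Aqp1 was at 0.08 (SE 0.751, adjusted p = 0.927) and at 2.65 without B16 IFNG 2 (adjusted p = 0.00175).

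The genes most like the called members over the 12 libraries were found by the smallest root mean square difference of centred log2(CPM + 1) values, leaving out symbols of predicted genes. These likenesses mostly follow the 4 group means, with line and depth shared by all points, and are a description. Closest to Axl were Apod (difference 0.553, r = 0.980), a secreted lipocalin, and Casp12 (0.586, r = 0.978), a caspase. Apod stood at 0.368, 6.37, 84.1 and 132 CPM in untreated B16, treated B16, untreated YUMM1.1 and treated YUMM1.1. Closest to Nes were Timp3 (0.283, r = 0.991), a metalloproteinase inhibitor that went from 24.1 to 2.70 CPM in B16, and Fez1 (0.283, r = 0.990). Closest to Nrg1 were Mmp3 (0.264, r = 0.996), a matrix metalloproteinase at 14.9 and 5.43 CPM in YUMM1.1, and Fmod (0.274, r = 0.991), the matrix proteoglycan fibromodulin at 18.8 and 5.43 CPM. Closest to Sox9 were Afg1l (0.243, r = 0.852) and Gca (0.248, r = 0.846).

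The authors' deposited table gave log2 fold changes close to those computed here for the called members. In B16 its values were 3.21 for Axl, 0.93 for Sox9 and -2.65 for Nes, and in YUMM1.1 it gave -1.50 for Nrg1 and -0.10 for Axl.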

How the data were processed

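Total RNA of 12 libraries was sequenced, and the raw read counts per Ensembl gene were deposited by the authors as whole numbers without normalization. For each line the authors also deposited a table with a log2 fold change per gene, its test statistic (a score) and a p-value without adjustment, used here for symbols and for the values credited to them. The submitters' processing notes name the build GRCm38. Aligner, counting tool and strandedness were not given in the sources used here. Groups and library numbers came from the sample titles. Because the labels name no separate cultures, p-values cover only the spread among these libraries, which may be technical. Chi-square over degrees of freedom, computed on counts of library pairs, was 1.28 for B16 IFNG 1 and 2 (18.2 and 18.5 to IFNG 3). It was 1.59 to 3.42 for B16 controls and 14.7 to 45.4 in YUMM1.1. All libraries were kept as separate samples, and these values cannot tell separate cultures from preparations of 1 culture. Mitochondrial transcripts took 1.95% of the counts of B16 IFNG 3 and 0.520% to 1.18% of those of the others.

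Counts were tested in R 4.3.3 with edgeR 4.0.16 (filterByExpr, TMM factors, robust quasi-likelihood F tests), and the code was tested on simulated data. The effect of IFNG was tested on the 6 libraries of a line. Differences of effects and between lines came from all 12 in 1 fit of 4 groups. SE values were derived from log2 values and F (absolute log2 divided by root F). CPM uses library totals, and RPKM also the union exon length of GENCODE M21. For a group without reads the floor was 3 counts in all its libraries together, and floors and 95% intervals cover counting error only. Alternatives were DESeq2 1.42.0, RLE factors or library totals as scaling, tests without a filter or with 1 CPM required in 3 libraries, a replicate block, 12 libraries in 1 fit, a threshold of 0.01, and each library left out. Figures used matplotlib 3.10.9.

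The members and lists were chosen with earlier results of these data known. The text names all members and, from each list, the most abundant gene per length, the called gene with the smallest adjusted p in each line and, in lists of ligands and receptors, further called genes with an absolute log2 of at least 1. Likeness was computed for genes of at least 5 CPM in some group. Marker genes, genes at or near 0 reads, Traf6, Camk2d, Des, Gfap, Thbs1, Foxd3, Errfi1, Fgfr1, Tulp1, the called SOX genes and those called lower in YUMM1.1 were named after their values were seen. Some genes that the rule takes are not reported here.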

Additional observations from a re-analysis of the deposited data

Results flagged for a closer look

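The effect of IFNG differed between the lines for 2 of the 9 members tested for it. This is near the share of 18.5% called over all 13603 genes tested for this difference. The Axl effect in YUMM1.1 minus that in B16 was -3.26 on the log2 scale (SE 0.233, adjusted p = 1.12e-07, edgeR), from 3.19 in B16 and -0.10 in YUMM1.1, and stayed between -3.38 and -3.08 over 18 alternatives. The Nes effect differed by 2.91 (SE 0.233, adjusted p = 3.41e-07, edgeR), from -2.68 in B16 and 0.21 in YUMM1.1, and stayed between 2.75 and 3.11. In B16 3 of 3 treated libraries lay above the untreated range for Axl, as for 18.2% of tested genes. For Nes 3 of 3 lay below it, as for 41.3% of tested genes. In YUMM1.1 the groups overlapped for both members.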

How the results depend on the processing

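Axl and Nes in B16, Nrg1 in YUMM1.1, and the differences of the Axl and Nes effects between lines kept their direction and their call at 0.05 under all alternatives run. Counts of all called genes moved at an adjusted p below 0.01, to 3295 in B16, 357 in YUMM1.1 and 1355 for the difference, and to 1055 in YUMM1.1 with no filter. Leaving out each library gave 3728 to 6367 genes in B16, 426 to 583 in YUMM1.1, 1784 to 2616 for the difference, 8512 to 9978 for untreated and 8674 to 9769 for treated lines.

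Values that changed sign were not called in either setting, and the cause was not tested. With library totals these were Wnt5a in YUMM1.1 (-0.0222), Sox9 between untreated lines (-0.21) and Aqp1 between treated lines (-0.0373, and -0.0301 with DESeq2). Leaving out each library gave YUMM1.1 effects of -0.19 to 0.0247 for Axl, -0.0822 to 0.51 for Sox9, -0.0792 to 0.24 for Gfra2 (these 3 turned without IFNG 3) and -0.0783 to 0.14 for Wnt5a (-0.0783 without Control 3 and -0.0225 without IFNG 3). The differences of effects ranged from -2.06 to 1.06 for Aqp1 and from -5.62 to 0.0606 for Wnt5a, both highest without B16 IFNG 2. Sox9 between untreated lines ranged from -0.28 to 0.35 and turned without B16 Control 1, B16 Control 3 or YUMM1.1 Control 1. Aqp1 between treated lines ranged from -0.47 to 2.65 and turned without B16 IFNG 1, B16 IFNG 3 or YUMM1.1 IFNG 2.

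Libraries of the same number share only a number: their deviations had correlations of 0.28, 0.00 and 0.28 in B16 and -0.01, -0.43 and -0.07 in YUMM1.1, and not every one correlated best with its own number. A replicate block gave 5765 called genes in B16, 560 in YUMM1.1, 2338 for the difference, 7875 for untreated and 7863 for treated lines, and changed no member's call. Among other genes named it called Sox10 lower (-0.45, adjusted p = 0.00398) and Maged1 higher (0.23, 0.0322) in B16, Fgfr1 lower in YUMM1.1 (-0.65, 0.0214) and Sox10 lower between untreated lines (-0.47, 0.0365). It lost the call of Loxl2 between untreated lines (0.0502). Depth limits the B16 values of Egfr, Sox2, Gfra2, Wnt5a, Nrg1 and Ngfr, where 0 to 8 reads stood behind a group.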
